A study of Mus musculus with 3 samples.

Results

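The genes described here are the ligands, receptors, antagonists, Smad transducers and targets of the Tgf-beta, activin and Bmp pathways in healing skin. They were chosen by symbol, as 52 genes listed by name, and 51 of them had a probe set that the platform annotation assigns to 1 gene symbol, out of 19938 such genes on the array. Gdf15 was not analysed here. Each of the 51 had 1 probe set. The samples were back skin of C57Bl/6 mice, an inbred strain, aged 6 weeks, that had received a wound of 1.5 cm2 through epidermis and dermis. The group labelled wound day 10 was collected 10 days after the excision, wound day 12 after 12 days and wound day 14 after 14 days, with no other treatment and no unwounded control among these samples. Tissue of 3 mice was combined on each day and measured on 1 array, so every value below is that of 1 pool, no replicate error exists, and no test between days was made. The authors' values are on a log2 scale, on which a difference of 1 is 2-fold.

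Tgf-beta ligands are secreted bound to a latency peptide and, through it, to latent Tgf-beta binding proteins of the matrix. Once freed, Tgf-beta and activin bring together type I and type II receptor kinases that phosphorylate Smad2 and Smad3, whereas Bmp receptors phosphorylate Smad1 and Smad5, and both kinds of Smad enter the nucleus with Smad4. In wounds, Tgf-beta is known for driving fibroblasts to become contractile, matrix-producing myofibroblasts, and activin is induced after injury. In skin, Bmp signals and their secreted antagonists are known for setting when hair follicles form and enter growth, and the Id genes are their classic direct targets.

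All 5 measured Tgf-beta and activin ligand genes had lower values on day 14 than on day 10. Of all genes 35.6% were lower, and of the 9969 genes with a mean level at or above the median 53.3%. On day 14, compared with day 10, Tgfb2 was lower by a factor of 2.01 and Inhba by a factor of 1.80, and Acvr1b, an activin type I receptor gene, was 1.66-fold higher. Bmp antagonists lay far apart in both directions, with Grem1 2.04-fold lower and Sostdc1 2.71-fold higher. Among the Id genes, Id4 was 3.14-fold higher on day 14 and Id1 was 1.39-fold lower. Chrdl1, a gene of the chordin-like antagonists, was 1.70-fold lower. Id1 and the measured genes of the list not named in these sentences differed by less than 1.5-fold between these days.

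Differences were read against a yardstick that does not depend on these genes. In 469 genes with exactly 2 probe sets and a mean level at or above the median of all genes, the 2 probe sets gave the difference between day 14 and day 10 within 0.41 log2 units of each other in 95% of genes. The corresponding sizes were 0.35 for day 12 against day 10 and 0.24 for day 14 against day 12. This covers spread between probe sets within the arrays, not the spread between animals. The yardstick was not measured in genes below the median level, which include Bmp3, Bmpr1b and Chrdl1. On day 14 against day 10, 11 of the 51 genes (21.6%) lay beyond it, against 11.2% of all genes and 17.5% of the 9969 genes with a mean at or above the median. On day 12 against day 10 it was 7 (13.7%), against 9.12% of all genes and 14.7% of the upper ones. On day 14 against day 12 it was 12 (23.5%), against 8.30% and 10.8%.

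Counted by a fixed size of 1.5-fold, a log2 difference of 0.58, 3 of the 51 genes were higher on day 14 than on day 10 (5.88%), against 3.11% of all genes, and 4 were lower (7.84%), against 2.98%. The higher genes were Id4, Sostdc1 and Acvr1b, and the lower ones were Grem1, Tgfb2, Inhba and Chrdl1. Nearest to the threshold without reaching it were Bmpr1b at −0.55 and Bmp3 at 0.53. At 2-fold, Id4 and Sostdc1 were higher, against 1.25% of all genes, and Grem1 and Tgfb2 lower, against 0.512%. Between day 10 and day 12, 2 genes were at least 1.5-fold higher, against 2.33% of all genes, and 0 were lower, against 0.958%. Between day 12 and day 14, 0 genes were higher, against 0.271%, and 1 was lower, against 0.712%. The pairs of days share arrays, so these counts are not independent of each other.

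Genes with low signal give fewer differences past a fixed size, and 38 of the 51 had a mean at or above 8.25, the median over all gene means. Among these 38, 3 were at least 1.5-fold higher and 3 lower on day 14 against day 10, where the upper 9969 genes gave 4.81% and 4.83%. Chrdl1 was the gene left out. The median difference of the 51 genes was −0.02 on day 14 against day 10, with 26 lower, 19 higher and 6 exactly equal. Over all genes the median was 0.00, with 35.6% lower and 34.9% higher, and over the upper 9969 genes it was −0.02, with 53.3% lower and 29.3% higher. Exactly equal values on several arrays are common in this table. On all 3 days the same value was held by 4 of the 51 genes, against 25.7% of all genes and a smaller share of the upper 9969. Between days 10 and 14, 11.8% of the 51 genes were exactly equal, against 29.5% of all genes and 17.4% of the upper 9969. Exact ties occurred in bright genes too, such as Tgfbr2. How the ties arose was not tested, so a tie cannot be read as unchanged expression.

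**Figure D1:**
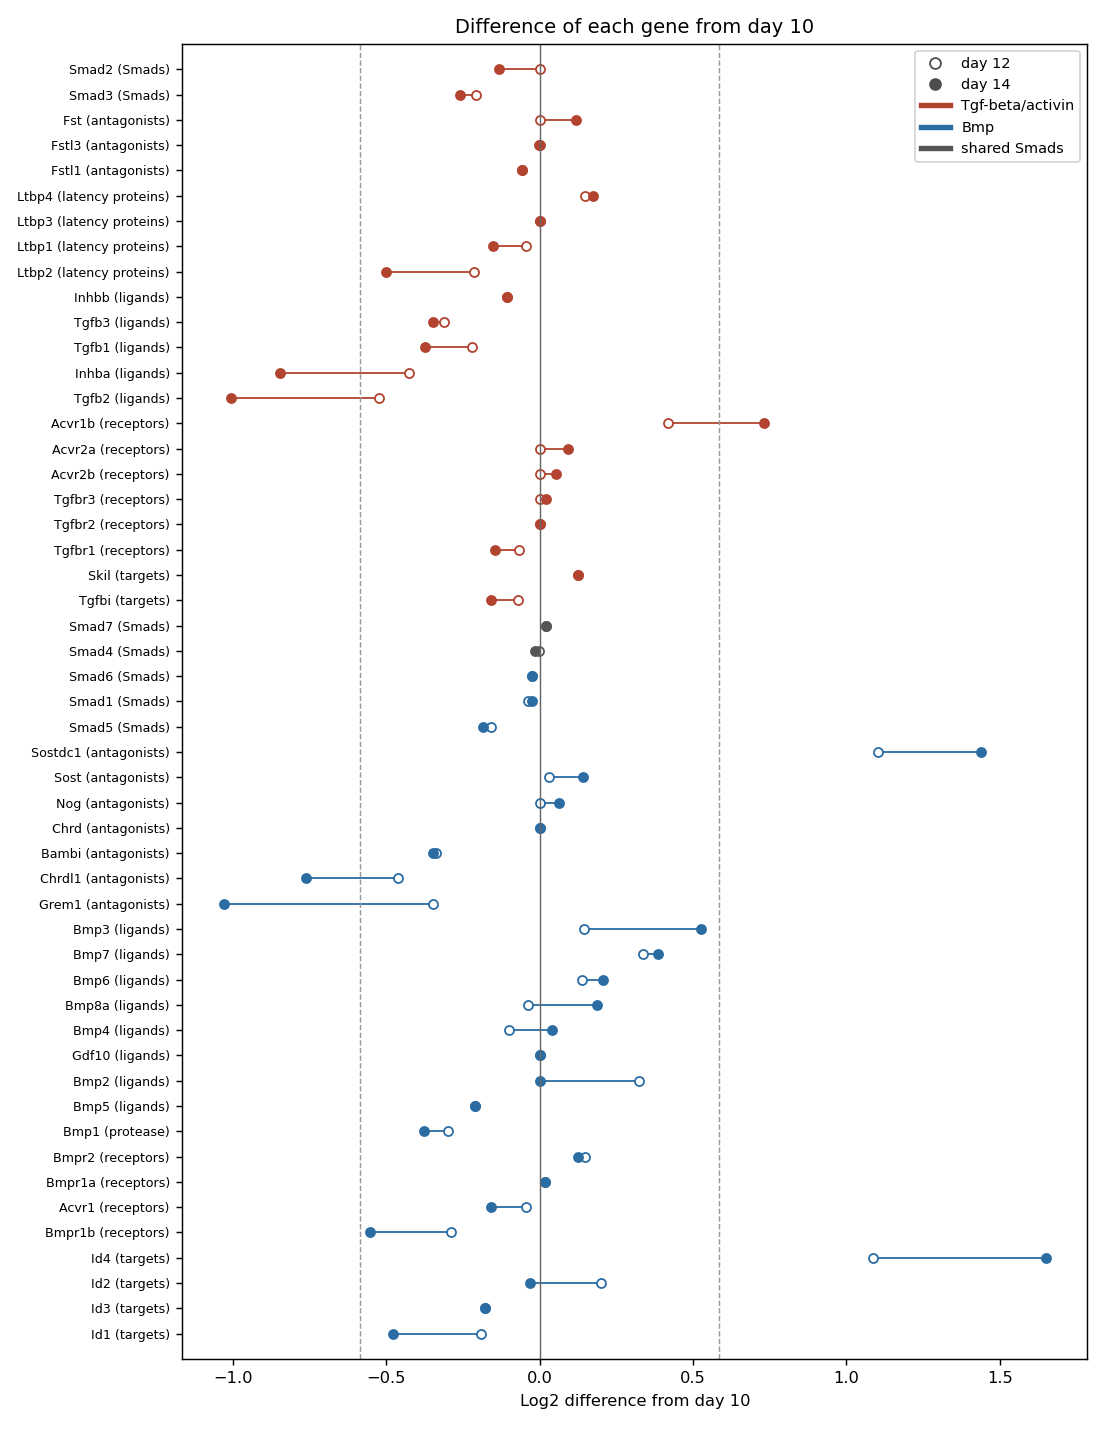
Log2 difference of each of the 51 genes from day 10, on day 12 (open points) and day 14 (filled points), ordered by family and role, with dashed lines at 1.5-fold. Most genes lie between the dashed lines, and on day 14 Id4, Sostdc1 and Acvr1b lie to their right and Grem1, Tgfb2, Inhba and Chrdl1 to their left.

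**Figure D2:**
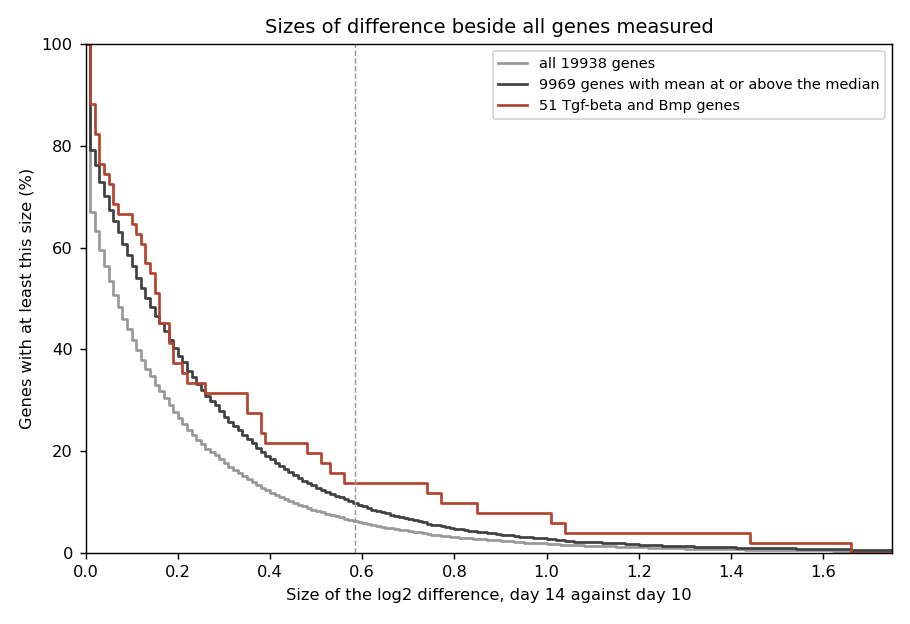
Share of genes, in percent, whose log2 difference between day 14 and day 10 had at least the size on the horizontal axis, for the 51 genes, all 19938 genes and the 9969 genes with a mean at or above the median; the dashed line is 1.5-fold. The line of the 51 genes lies above that of all genes over most sizes and close to that of the upper 9969 genes below 0.3.

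The stretches just before the start sites of 5 of the 7 genes past 1.5-fold are shown because the ligand, antagonist, receptor and target genes with the largest differences can be set side by side there. RefSeq's table for GRCm38.p6 held 36 of the 52 genes, and Sostdc1 and Chrdl1 were not among those matched. Each run is the 250 bases before the annotated start, read 5′ to 3′ on the gene's strand, with capitals marking TATAAA, the core of a TATA box, and GGCGCC, a motif found in Bmp response elements that Smad1 and Smad5 bind. The windows are chr1:186705990-186706239 on the minus strand for Tgfb2, chr13:16011601-16011850 on the plus strand for Inhba, chr2:113758649-113758898 on the minus strand for Grem1, chr13:48260866-48261115 on the plus strand for Id4 and chr15:101173822-101174071 on the plus strand for Acvr1b.
Tgfb2: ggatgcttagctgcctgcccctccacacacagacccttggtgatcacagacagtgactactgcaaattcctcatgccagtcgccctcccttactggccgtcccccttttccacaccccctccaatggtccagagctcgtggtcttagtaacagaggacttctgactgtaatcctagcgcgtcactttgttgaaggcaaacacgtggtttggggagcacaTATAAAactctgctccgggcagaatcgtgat
Inhba: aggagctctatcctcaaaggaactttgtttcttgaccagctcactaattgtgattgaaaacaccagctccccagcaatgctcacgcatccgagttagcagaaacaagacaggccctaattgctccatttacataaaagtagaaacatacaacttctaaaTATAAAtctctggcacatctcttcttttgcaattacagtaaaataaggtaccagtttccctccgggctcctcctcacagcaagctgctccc
Grem1: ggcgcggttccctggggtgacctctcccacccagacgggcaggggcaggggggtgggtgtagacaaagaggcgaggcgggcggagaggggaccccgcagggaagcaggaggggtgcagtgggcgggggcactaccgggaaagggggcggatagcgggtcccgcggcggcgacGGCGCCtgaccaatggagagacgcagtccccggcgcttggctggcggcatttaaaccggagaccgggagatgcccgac
Id4: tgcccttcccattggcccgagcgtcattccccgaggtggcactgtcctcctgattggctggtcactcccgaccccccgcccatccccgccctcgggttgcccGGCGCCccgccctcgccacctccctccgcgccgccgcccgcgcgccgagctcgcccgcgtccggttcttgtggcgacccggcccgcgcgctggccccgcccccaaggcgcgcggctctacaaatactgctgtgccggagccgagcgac
Acvr1b: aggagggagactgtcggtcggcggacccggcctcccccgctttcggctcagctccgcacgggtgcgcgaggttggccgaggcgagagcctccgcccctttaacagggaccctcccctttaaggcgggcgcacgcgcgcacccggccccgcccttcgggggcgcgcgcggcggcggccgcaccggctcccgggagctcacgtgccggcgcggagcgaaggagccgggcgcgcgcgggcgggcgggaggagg
TATAAA begins 31 bases before the start of Tgfb2 and 91 bases before that of Inhba, and GGCGCC begins 78 bases before the start of Grem1 and 148 bases before that of Id4. Neither motif is in the Acvr1b window, which is 78.8% G and C.

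Searched on both strands, TATAAA occurred in 4 of the 36 genes (11.1%), which besides Tgfb2 and Inhba were Fstl3 and Bmpr1b, against 14.3% of all 27025 genes in the table. GGCGCC, which reads the same on both strands, occurred in 10 of the 36 (27.8%), against 10.8% of all genes. Besides Grem1 and Id4 these were Id2, Smad5, Bmpr1a, Bmpr2, Chrd, Ltbp4, Tgfbi and Tgfbr1. The windows of all 36 genes, with or without the motif, held more G and C, with a median of 64.0% against 52.4% over all windows. CAGAC, the short motif bound by Smad3 and Smad4, occurred in 19 of the 36 (52.8%), against 45.8% of all genes. The genes with GGCGCC include Id4, which was higher on day 14 than on day 10, and Grem1, which was lower. Whether any of these motifs bears on expression was not tested.

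Among the Tgf-beta and activin genes, all 5 measured ligand genes were lower on day 12 than on day 10 and lower on day 14 than on day 10, with medians of −0.31 and −0.37. On day 12, 34.5% of all genes and 45.3% of the upper 9969 were lower than on day 10. On day 14 these shares were 35.6% and 53.3%. Tgfb2, which encodes the Tgf-beta 2 ligand, had log2 values of 10.94 on day 10, 10.41 on day 12 and 9.93 on day 14. It was lower on each later day, and the difference between day 14 and day 10 was −1.01, which was −0.96 under quantile normalization and so just short of 2-fold. Inhba encodes the beta A subunit, which pairs to form activin A. Its values were 11.14, 10.71 and 10.29 on days 10, 12 and 14, a difference of −0.85 spread evenly over both steps.

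Tgfb1, the isoform made by platelets, macrophages and many other cells, stood at 11.24, 11.01 and 10.86. Tgfb3 stood at 11.69, 11.38 and 11.34, so that nearly all of its difference of −0.35 lay between day 10 and day 12. The differences of Tgfb1 (−0.37) and Tgfb3 on day 14 lay inside the spread between probe sets of 0.41, unlike those of Tgfb2 and Inhba. Inhbb, which encodes the beta B subunit of activin B, stood at 9.24, 9.13 and 9.13. Its difference of −0.11 on day 14 against day 10 lay inside that spread as well.

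Of the 6 receptor genes of this family, 4 were higher (66.7%), 1 lower and 1 equal on day 14 against day 10. Of all genes 34.9% were higher, and of the upper 9969 genes 29.3%. Acvr1b encodes the type I activin receptor Alk4, and its values were 9.24 on day 10, 9.66 on day 12 and 9.97 on day 14. It was higher on each later day, by 0.42 and then 0.31. The other 5 receptor genes lay within 0.20 of their day 10 value on day 14. Tgfbr2, the type II receptor that binds Tgf-beta, had a value of 11.93 on every day. Tgfbr1, its type I partner, stood at 10.66, 10.60 and 10.52. Tgfbr3, the coreceptor betaglycan that presents ligand, stood at 10.99, 10.99 and 11.01. The type II activin receptor genes Acvr2a and Acvr2b, which also serve Bmp ligands, differed by 0.09 and 0.05 on day 14 against day 10.

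The latent Tgf-beta binding proteins tether the latent ligand to matrix, except for the protein of Ltbp2, which does not bind it and associates with elastic fibres. Ltbp2 stood at 8.86, 8.65 and 8.36, a difference of −0.50. Ltbp1 differed by −0.15 and Ltbp4 by 0.17 on day 14 against day 10, and Ltbp3 held 10.47 on each day. Only Ltbp2 of these 4 genes lay beyond the spread between probe sets.

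Follistatin genes, whose products bind and neutralise activin, lay near 0. Fst stood at 10.08, 10.08 and 10.20, and Fstl3 at 10.05 on each of the 3 days to 2 decimals. Fstl1, a more distant relative, stood at 13.09, 13.03 and 13.03. Smad2 and Smad3, the transducers of this branch, differed by −0.13 and −0.26 on day 14 against day 10. Of the targets, Tgfbi, a matrix protein gene induced by Tgf-beta, stood at 12.87, 12.80 and 12.71, and Skil, which encodes the feedback repressor SnoN, at 9.56, 9.68 and 9.68. Smad4, shared by both branches, differed by −0.02, and the inhibitory Smad7 by 0.02. For the whole family of 22 measured genes the median difference on day 14 against day 10 was −0.08, with 12 lower, 7 higher and 3 equal.

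**Figure D3:**
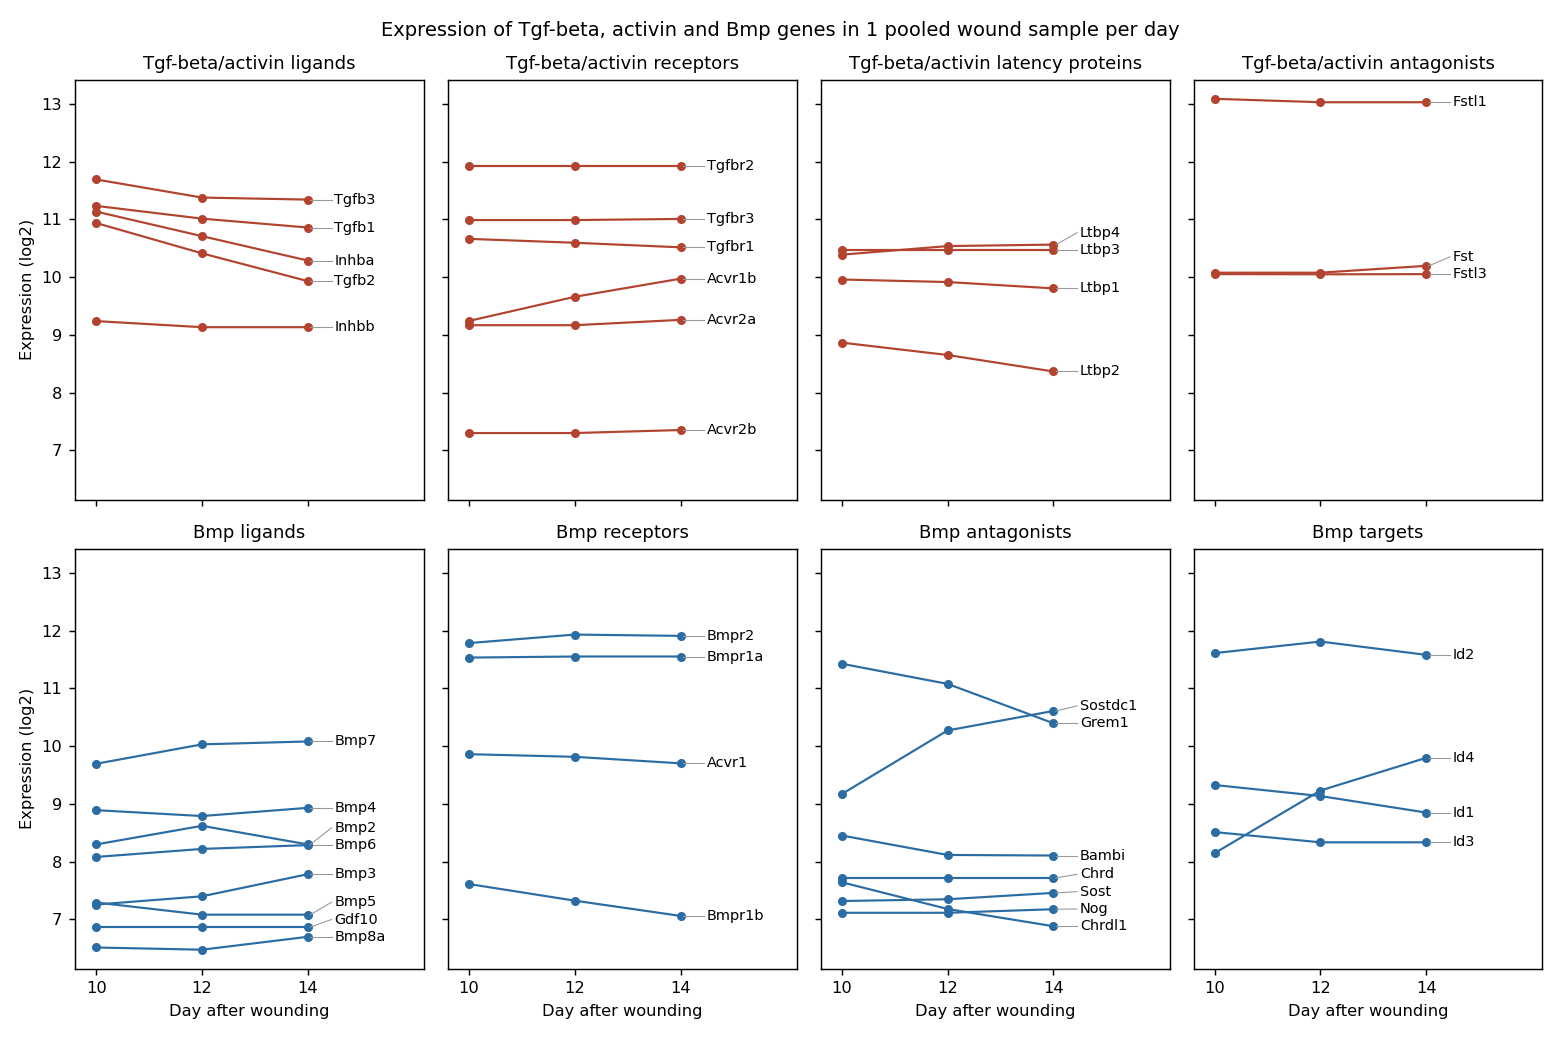
Log2 expression on days 10, 12 and 14 for ligand, receptor, latency protein and antagonist genes of the Tgf-beta and activin family (top) and ligand, receptor, antagonist and target genes of the Bmp family (bottom), with 1 point per pool of 3 mice. Heights of different genes cannot be compared because each has its own probes. The slopes show the lower Tgfb2, Inhba and Grem1 values and the higher Acvr1b, Sostdc1 and Id4 values on later days.

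Of the 8 Bmp ligand genes, 5 were higher (62.5%), 1 lower and 2 equal on day 14 against day 10. Their median was 0.11, and none reached 1.5-fold. Of all genes 34.9% were higher and 35.6% lower, and of the upper 9969 genes 29.3% and 53.3%. Bmp3, Bmp5, Bmp6, Bmp8a and Gdf10 had mean levels below the median of all genes. Among the higher genes, the differences of Bmp4, Bmp6, Bmp7 and Bmp8a lay inside the spread between probe sets of 0.41. Bmp3, an atypical ligand that opposes other Bmps, stood at 7.25 on day 10, 7.40 on day 12 and 7.78 on day 14. Its difference of 0.53 lay beyond the spread between probe sets and arose mainly between day 12 and day 14. That spread was measured only in genes with a mean at or above the median, and Bmp3 lies below it. Bmp7, made by epithelia among other tissues, stood at 9.70, 10.03 and 10.08. Bmp2 stood at 8.30, 8.62 and 8.30, which made day 12 the highest day. Bmp4 stood at 8.89, 8.79 and 8.93, and Bmp6 at 8.08, 8.22 and 8.28.

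The remaining ligand genes had low signal. Bmp5 stood at 7.29, 7.08 and 7.08, and Gdf10, a relative of Bmp3, at 6.86 on each day. Bmp8a stood at 6.51, 6.47 and 6.70, and its close copy Bmp8b, whose transcripts may reach the same probes, at 6.48, 6.40 and 6.48. Bmp1 is named with this family but encodes a metalloprotease that cleaves procollagen and chordin. It stood at 12.80, 12.51 and 12.43, a difference of −0.38 that lay inside the spread between probe sets.

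Bmp receptor genes were split, with 2 higher and 2 lower on day 14 against day 10. Bmpr1b, a type I receptor gene, stood at 7.61 on day 10, 7.32 on day 12 and 7.06 on day 14, lower on each later day with a difference of −0.55. Bmpr1a, the type I receptor gene with known roles in the hair follicle, stood at 11.54, 11.55 and 11.55. The type II receptor gene Bmpr2 stood at 11.79, 11.93 and 11.91, and Acvr1, which encodes the type I receptor Alk2, at 9.86, 9.82 and 9.70.

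Secreted Bmp antagonists held the widest range of any role. Grem1, which encodes gremlin 1, a binder of Bmp2 and Bmp4, had log2 values of 11.43 on day 10, 11.08 on day 12 and 10.40 on day 14. Its larger step, of −0.68, came between day 12 and day 14 and was the only one past 1.5-fold among the 51 genes in that pair. Its difference of −1.03 between day 14 and day 10 was −0.999 under quantile normalization and −0.995 under cyclic loess, just short of 2-fold. Sostdc1, an antagonist of Bmp and Wnt signals known from hair and tooth placodes, ran the other way, with 9.17 on day 10, 10.27 on day 12 and 10.61 on day 14. Most of its difference of 1.44 was present by day 12, on which it was 2.15-fold higher than on day 10.

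Chrdl1, which encodes a chordin-like binder of Bmp4, stood at 7.64, 7.18 and 6.88, a difference of −0.76 at a level below the median of all genes on each day. Bambi, which encodes a receptor-like protein without a kinase that damps both branches, stood at 8.45, 8.11 and 8.10. Chrd, the chordin gene, held 7.72 on each day. Nog, the noggin gene, stood at 7.11, 7.11 and 7.17, and Sost, a sclerostin gene best known from bone, at 7.32, 7.35 and 7.46. The 3 lower antagonist genes on day 14 against day 10 were Grem1, Chrdl1 and Bambi, and the 3 higher ones were Sostdc1, Sost and Nog.

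The Id genes encode proteins that bind basic helix-loop-helix factors and keep them from DNA, and the 4 members differed in sign. Id4 had log2 values of 8.15 on day 10, 9.23 on day 12 and 9.80 on day 14. Its difference of 1.65 between day 14 and day 10 was the largest of the 51 genes. It was higher on each later day, and its step of 0.57 between day 12 and day 14 lay just under 1.5-fold. After centring on array medians that step was 0.59 and after quantile normalization 0.61, both past 1.5-fold. Id1 was lower on each later day, at 9.33, 9.14 and 8.85, with a difference of −0.48. Id2 stood at 11.61, 11.81 and 11.58, highest on day 12, and Id3 at 8.51, 8.33 and 8.33.

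The Bmp Smad genes differed little. Smad1 stood at 9.50, 9.46 and 9.48, Smad5 at 10.54, 10.38 and 10.35, and the inhibitory Smad6 at 7.85, 7.82 and 7.82. For all 27 Bmp genes the median difference on day 14 against day 10 was 0.00, with 13 lower, 11 higher and 3 equal. The difference in medians between the Tgf-beta and Bmp genes was not tested.

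The 7 genes past 1.5-fold differed in how much of their day 14 difference was present by day 12. The share of the log2 difference was 33.8% for Grem1, 50.1% for Inhba, 52.2% for Tgfb2, 57.1% for Acvr1b, 60.8% for Chrdl1, 65.7% for Id4 and 76.6% for Sostdc1. In each of the 7 genes day 12 lay between the other days. The 7 were picked by a large difference between day 10 and day 14, which favours an intermediate day 12. Over the list, day 12 lay between for 26 of the 51 genes (51.0%), against 30.8% of all genes and 44.4% of the upper 9969. Those shares include many genes with equal values, so they are no measure for the 7.

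Genes of the same pathways outside the list were mostly near 0. Of 84 such genes listed by role, 78 were measured, and on day 14 against day 10, 3 were at least 1.5-fold higher (3.85%), 2 were at least 1.5-fold lower (2.56%) and 29 were exactly equal (37.2%). Of all genes, 3.11% were past 1.5-fold higher, 2.98% were past 1.5-fold lower and 29.5% were equal, so the first 2 shares are near the background. The 18 other ligand genes, from Gdf2 to Nodal, held none past 1.5-fold in any pair, and neither did the 8 other receptor genes or the 15 other intracellular regulators. These ligand genes had low signal, with mean levels of 6.64, 6.59 and 6.63 on days 10, 12 and 14, against a median gene mean of 8.25. Their lack of differences therefore cannot be read as stable expression. Among 20 other extracellular regulators, Itgb8, the integrin subunit gene whose product with alpha v frees latent Tgf-beta, stood at 8.66, 9.84 and 10.04. Pcsk6, a convertase gene whose product cleaves ligand precursors, stood at 9.33, 10.16 and 10.49. Both were higher by over 1.5-fold on day 12 already. Thbs1, which encodes thrombospondin 1, another activator of latent Tgf-beta, stood at 12.65, 12.81 and 12.20, a step of −0.61 between day 12 and day 14.

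Of 12 known Tgf-beta targets outside the list, 9 were measured. On day 14 against day 10, 7 of these 9 were lower (77.8%), with a median of −0.21. Of all genes 35.6% were lower, and of the upper 9969 genes 53.3%. The smooth muscle genes Tagln and Acta2 passed 1.5-fold, at −1.14 and −0.87, whereas the target gene Pmepa1 differed by −0.21 and Postn by −0.07. Of 10 known Bmp targets, 9 were measured, of which 4 were higher (44.4%), 1 was lower (11.1%) and 4 were equal (44.4%). Of all genes, 34.9% were higher, 35.6% lower and 29.5% equal. Gata3, which encodes a transcription factor of epidermis and inner root sheath, stood at 9.30, 10.62 and 10.90. The homeobox gene Dlx3 differed by 0.579, just short of 1.5-fold, and the homeobox gene Msx1 by 0.18. Hey1 differed by −0.46 and Msx2 held 6.97 on each day.

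These samples are whole tissue, in which fewer cells of a type and less RNA per cell cannot be told apart. The labelled tissue, epidermis and dermis, was borne out by its defining markers, with Krt5 and Krt14 between 13.2 and 13.3 and Col1a1 between 13.48 and 13.49 on the 3 arrays. Several marker lists shared the direction of genes past 1.5-fold on day 14 against day 10, but not always their course over the days. All 6 myofibroblast markers were lower on day 14 than on day 10, 5 of them by at least 1.5-fold, and the mean log2 level of the list was 11.78, 10.79 and 10.41 on days 10, 12 and 14. Acta2, Tagln and Postn of this list are also among the Tgf-beta targets above, so the lists are not separate observations. All 7 endothelial markers were lower, with mean levels of 10.83, 10.34 and 10.24. All 6 neutrophil markers were lower as well, with mean levels of 9.54, 9.56 and 8.97, the lowest on day 14. In this list Mmp8 and Mmp9 were past 2-fold on day 14 against day 10 and the other 4 were short of 1.5-fold. These stand beside the lower values of Tgfb2, Inhba, Grem1 and Chrdl1. The 6 fibroblast markers were split, with 3 higher, 2 lower and 1 equal, none past 1.5-fold, and means of 12.87, 12.86 and 12.82.

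On the other side, all 6 markers of differentiated epidermis were higher on day 14 than on day 10, with mean levels of 11.18, 12.19 and 12.41. All 7 sebaceous gland markers were higher, with means of 7.97, 9.67 and 9.35, and 5 of 6 mast cell markers were higher, with means of 8.0, 8.68 and 9.08. For hair shaft and inner root sheath, 7 of 8 were higher, with means of 7.15, 7.29 and 7.87. All 3 measured Schwann cell markers were higher, with means of 7.19, 7.45 and 7.60. These stand beside the higher values of Id4, Sostdc1 and Acvr1b. All 5 basal keratinocyte markers were higher, of which Krt5 and Krt14 differed by 0.05 and 0.02, and Col17a1 by 0.65. No marker is at 0, since values on this scale have no 0. The part of changed cell make-up in the differences of the 7 genes was not tested.

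**Figure D4:**
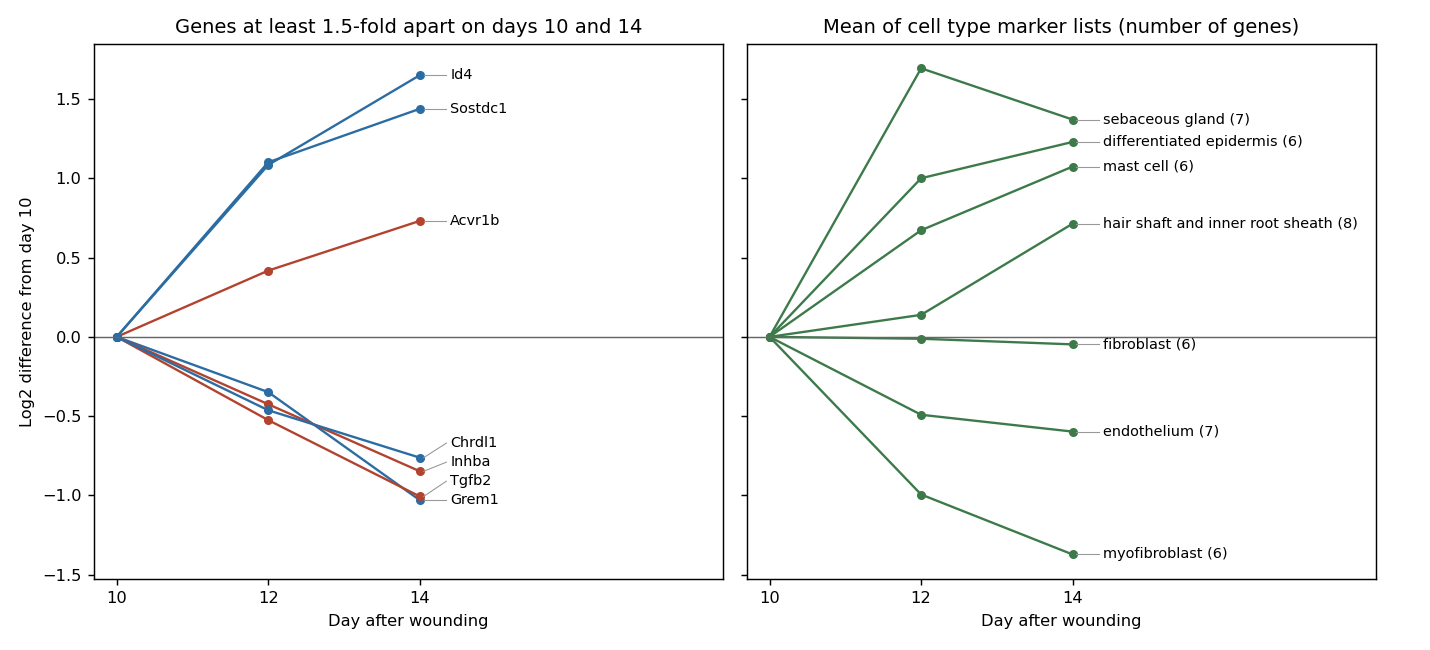
Log2 difference from day 10 on days 12 and 14 for the 7 genes at least 1.5-fold apart between day 10 and day 14 (left; red for Tgf-beta and activin, blue for Bmp) and for the mean of marker lists (right; number of genes in brackets), with 1 pool per day. On day 14 the myofibroblast mean lies 1.37 below day 10, lower than any of the 7 genes, and the sebaceous gland mean is highest on day 12.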

How the data were processed

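Total RNA of pooled wound tissue was measured on 3 arrays, 1 per day, after amplification from 250 ng, per the labels' protocols. The deposited table holds log2 values per probe set. The submitters' processing notes name RMA and Partek 6.6 but give no role for either, and the log2 scale was taken from the range of 4.37 to 14.1. Array medians over 35556 probe sets were 7.53, 7.55 and 7.53. The number of arrays limits the precision, and detection per probe set is unknown. Of the probe sets, 21789 had 1 symbol in the platform annotation and were averaged per symbol (19938 genes), 1621 had several, and 12146 were not listed and not used.

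No level filter was applied, since a filter on the highest day depends on the differences. Days were compared by log2 differences, counted at 1.5-fold and 2-fold, without a test. Counting was checked on simulated 2-fold shifts, with noise smaller than the spread between probe sets. Such a check bears on the arithmetic, not on the calls in these data. The members and lists were chosen with earlier results of these data known. All members are named; of each other pathway list, up to 4 genes that differed by 0.58 or more in some pair were to be named, and others are examples chosen after their values were seen. The 7 alternatives were centring, quantile normalization and cyclic loess (limma 3.58.1), the brightest probe set, a filter on the mean, added several-symbol probe sets and 2-fold. Python 3.11.15 and pandas 2.3.3 were used. Promoters came from RefSeq (GRCm38.p6).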

Additional observations from a re-analysis of the deposited data

How the results depend on the processing

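With 1 pool per day, no sample could be left out and no paired analysis was possible because each day has 1 array, so stability was read from the 7 alternatives alone. None of the 51 genes turned direction after passing 1.5-fold, and each moved by less than the standard deviation between probe sets of a gene (0.15 for day 14 against day 10); the largest shift was 0.06, under quantile normalization. The count of genes at least 1.5-fold higher on day 14 against day 12 went from 0 to 1 (Id4) after centring on array medians and to 1 under quantile normalization. With the 2-fold threshold the count of lower genes was 0 for the step from day 12 to day 14 and 2 for day 14 against day 10. Grem1 and Tgfb2 were short of 2-fold on day 14 against day 10 under quantile normalization (−0.999 and −0.958) and cyclic loess (−0.995 and −0.971), and Tgfb2 also after centring (−0.995). The other counts stayed within 1.5 times, and the medians of the 51 genes on day 14 against day 10 lay between −0.03 and 0.02. The brightest probe set and the several-symbol probe sets changed no value of the 51 genes, which have 1 probe set each. Low signal limits Chrdl1, Bmpr1b and Bmp3, and whether the 13 genes below the median level stood above background is unknown.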

Other observations

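Day 12 was the highest day for Bmp2, Id2 and Bmpr2 among the 51 genes (5.88%), against 8.78% of all genes and 14.4% of the upper 9969. Bmp2, a ligand gene, was 0.32 log2 units higher on day 12 than on both other days, and Id2 was 0.20 above day 10 and 0.23 above day 14. Of these steps, that of Bmp2 from day 12 to day 14 lay beyond the spread between probe sets of 0.24, and the others did not. On the same array 6 of 6 macrophage markers were higher than on day 10 and 6 of 6 were higher than on day 14, with mean levels of 11.40, 11.69 and 11.33 on days 10, 12 and 14. Mean levels also peaked on day 12 for sebaceous gland (7.97, 9.67 and 9.35), adipocyte (8.78, 8.96 and 8.90) and neutrophil markers (9.54, 9.56 and 8.97). Not all genes of these lists shared that course. On day 12 against day 10, 4 of 6 neutrophil markers were lower. On day 14 against day 12, 3 of 4 adipocyte markers and 2 of 7 sebaceous gland markers were higher. The other marker lists had their highest mean on day 10 or day 14. A link of any list to Bmp2 or Id2 was not tested. Thbs1 was highest on day 12 as well.

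Day 12 was the lowest day for Bmp4, Bmp8a, Smad1 and Fstl3 (7.84%), against 9.59% of all genes. None of the 4 differed by more than 0.23 between any pair of days. The step of Bmp8a from day 12 to day 14, 0.22, was the largest among them.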
